A study of Homo sapiens with 18 samples.

Results

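The 48 genes described here encode the proteins that license replication origins, open the DNA and copy it: the origin recognition complex and its loading factors, the MCM helicase with CDC45 and GINS, the replicative polymerases, the sliding clamp and its loader, the single-strand binding proteins and a set of fork protection factors. They were chosen by name, from a list of replication proteins drawn up with earlier results of these data known, and no measured value enters the rule. All 48 were found by gene symbol among the 60656 gene rows of the count table. All 48 also passed the filter on low counts in each fit, among 11053 genes tested in CAMA-1, 11017 in ZR-75-1 and 11987 over both lines.

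Replication origins are licensed in G1 phase, when the origin recognition complex, CDC6 and CDT1 load MCM2-7 rings onto DNA, and geminin (GMNN) holds CDT1 back once S phase has begun. CDC45 and GINS then join the ring to make the active helicase, and the polymerases, PCNA and RPA assemble on the opened strands. Many of these genes are textbook targets of E2F factors, which the retinoblastoma protein (Rb) holds in check when CDK4 and CDK6 do not phosphorylate it.

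CAMA-1 and ZR-75-1, oestrogen receptor-positive breast cancer cell lines labelled as wild-type parent cells, were given abemaciclib or palbociclib, both inhibitors of CDK4 and CDK6, or an equal volume of the solvent DMSO. Each drug was used at 500 nM, exposure lasted 5 days in all groups, and each of the 6 groups had 3 libraries made with a 3′-end messenger RNA kit. The 3 libraries of a group are separate cultures by the study's own description of its cell line RNA-seq, while the labels give only replicate numbers.

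Library totals ran from 2308442 to 4146549 counts, so that 3 counts stood for 0.723 to 1.30 CPM. The luminal markers ESR1, GATA3, FOXA1, KRT8, KRT18 and KRT19 were detected in every library, with a summed level of 4659 to 6453 CPM. Of 8 markers of other cells, KRT5, COL1A2 and CD3E had 0 counts in all libraries, KRT14, PTPRC and PECAM1 had at most 3, COL3A1 had 0 to 24 and COL1A1 had 26 to 108. The share of counts from mitochondrial genes moved with treatment in CAMA-1, from 14.8 to 16.6% in the DMSO libraries to 23.4 to 26.1% with abemaciclib and 22.9 to 24.9% with palbociclib. In ZR-75-1 this share was 17.3 to 22.6% with DMSO, 18.5 to 20.5% with abemaciclib and 18.5 to 19.8% with palbociclib.

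Most replication genes were lower with either drug in CAMA-1, as they were for abemaciclib in ZR-75-1, and 14 of the 48 were lower with palbociclib in ZR-75-1. In CAMA-1 the 48 members together held 2687 ± 13.6 CPM with DMSO (mean ± SD, n = 3, as for all values given in this form), 1025 ± 15.0 CPM with abemaciclib and 1318 ± 40.6 CPM with palbociclib. In ZR-75-1 they held 1833 ± 70.4, 1064 ± 24.6 and 1572 ± 30.5 CPM, respectively. CPM values are normalised counts, that is, counts relative to the scaled library total, with the scaling set within each line. Paired values in parentheses below are log2 fold changes against DMSO, for abemaciclib and then palbociclib. In neither line did the summed level of a drug group overlap that of DMSO.

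A member was called lower or higher at an adjusted p under 0.05, from the quasi-likelihood test of edgeR with Benjamini-Hochberg adjustment over all genes tested. With abemaciclib in CAMA-1, 44 of the 48 members were called lower and 0 higher, where 20.1% of all genes tested were called lower and 20.3% higher. Palbociclib in CAMA-1 gave 43 lower and 0 higher, against 18.7% and 18.4% of all genes. With abemaciclib in ZR-75-1, 34 were lower and 0 higher, against 18.3% and 17.9%. Palbociclib in ZR-75-1 gave 14 lower and 2 higher, against 13.4% and 14.5%. The median log2 fold change of the members was -1.46 for abemaciclib and -1.06 for palbociclib in CAMA-1. In ZR-75-1 these medians were -0.92 and -0.31, while the median of all genes tested lay between -0.01 and 0.01 in each comparison. A fall of at least 2-fold was called for 33, 28, 18 and 2 members, against 5.88, 4.51, 6.93 and 3.26% of all genes tested. With mitochondrial rows left out before scaling, 43 members were lower with abemaciclib and 42 with palbociclib in CAMA-1, where ORC1 was then not tested, and the counts in ZR-75-1 stayed at 34 and 14. The 14 lower calls with palbociclib in ZR-75-1 became 9 without DMSO replicate 2 or without palbociclib replicate 2, and 8 with DESeq2. In bulk RNA, fewer replicating cells and less RNA of these genes per cell cannot be told apart.

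**Figure D1:**
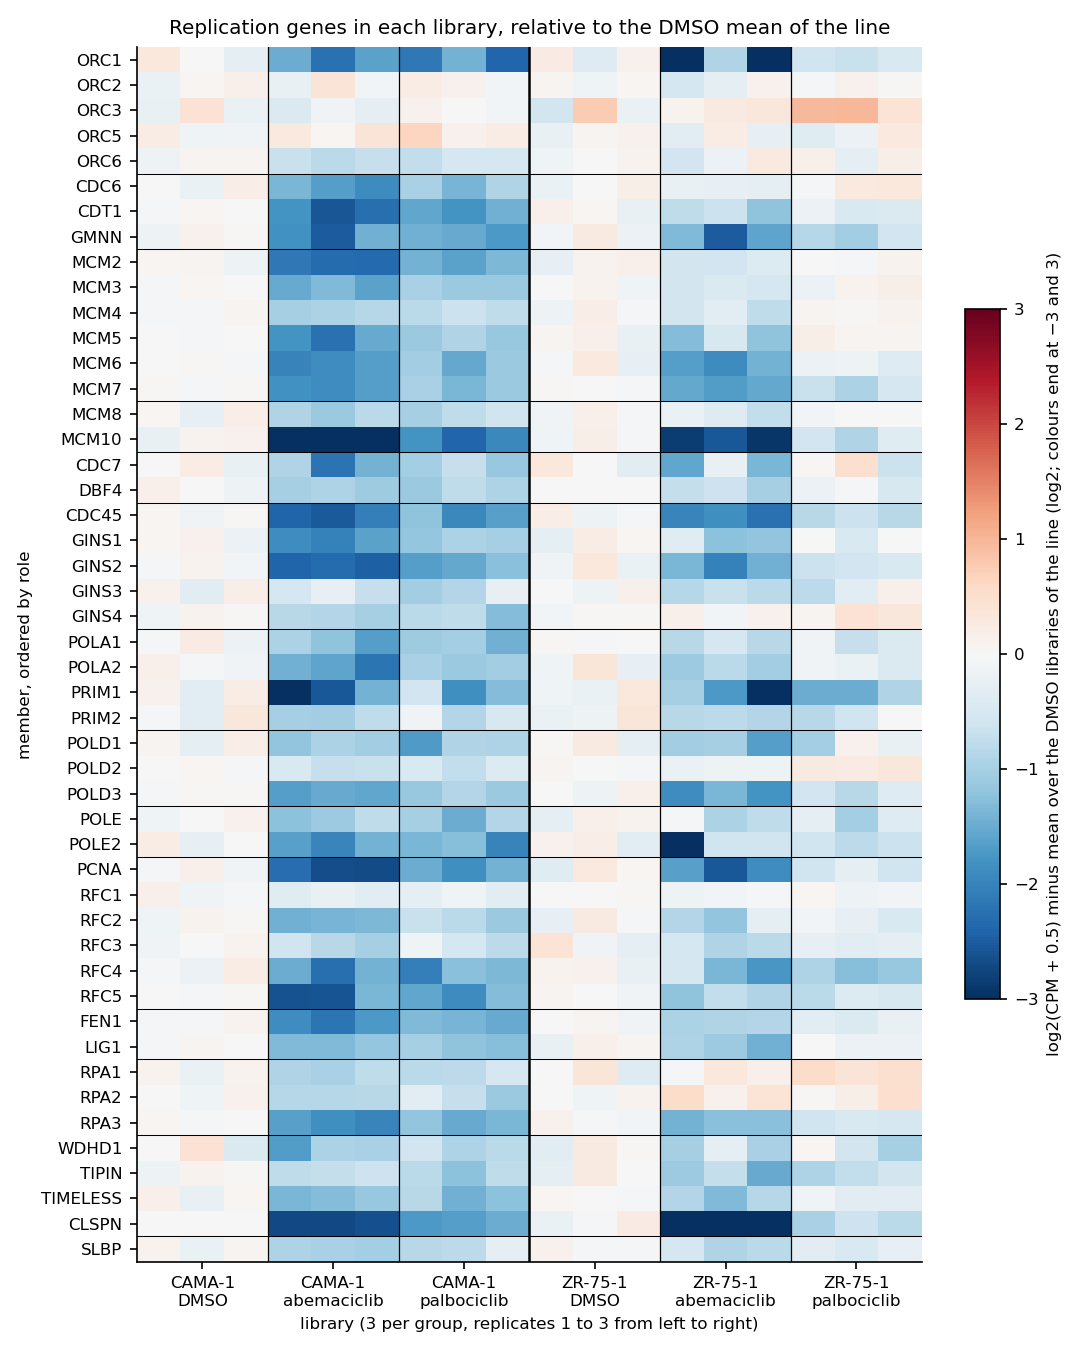
Level of each of the 48 members (rows, ordered by role) in each of the 18 libraries (columns, 3 per group), as the log2 ratio to the DMSO mean of the same line, on a colour scale. The abemaciclib and palbociclib columns of CAMA-1 are below the DMSO mean for most rows, and the palbociclib columns of ZR-75-1 lie nearer to it.

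The same 2 drugs and lines gave 4 comparisons with DMSO, which share control libraries within a line. Of the 48 members, 14 were called lower in all 4 of them, as were 5.48% of the 10124 genes tested in both lines: CDT1, GMNN, MCM7, MCM10, CDC45, GINS2, PRIM1, POLD3, PCNA, RFC4, RFC5, FEN1, RPA3 and CLSPN. A further 20 were called lower in 3, 8 in 2 and 3 in 1, against 4.99, 12.2 and 11.2% of those genes. The 3 called lower in none, against 66.2%, were ORC2, ORC3 and ORC5.

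**Figure D2:**
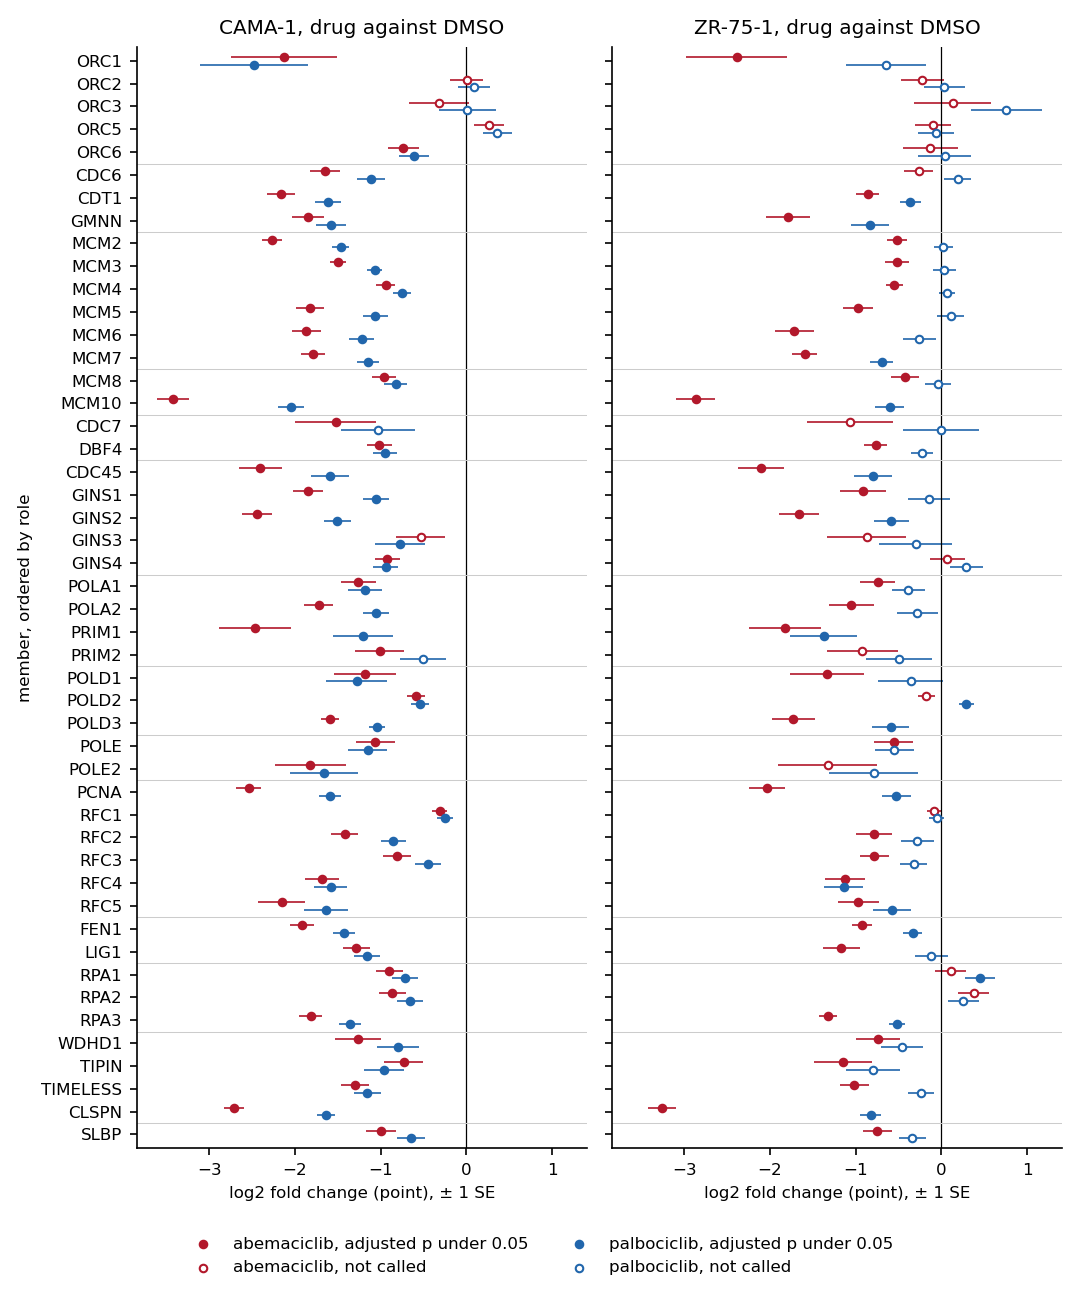
Log2 fold change of each member (rows, ordered by role) with abemaciclib and palbociclib against DMSO, one panel per cell line, with bars of the SE on either side. Filled points passed an adjusted p of 0.05 and open points did not. Nearly all CAMA-1 points lie to the left of 0, and in ZR-75-1 the palbociclib points lie to the right of the abemaciclib points for most members.

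Since most of these genes moved together, their start sites were read from RefSeq windows on GRCh38.p14, which reach from 250 bases before to 50 bases after the start, and which were found for 42 of the 48 members. MCM4, MCM5, GINS4, POLD3, RPA2 and RPA3 had no window. The letters of the E2F motif, TTTCCCGC, TTTGGCGC or TTTCGCGC on either strand, were found in at least 1 window of 22 of the 42 members (52.4%) and of 3.30% of all 27305 genes with a window. CCAAT was found for 25 of 42 (59.5%) and for 39.7% of all genes, and TTTGAA, the letters of the cell cycle homology region, for 1 of 42 (2.38%, DBF4) and for 18.2%. The median change of the 22 members with E2F letters was -1.69, -1.15, -0.98 and -0.31 for abemaciclib and palbociclib in CAMA-1 and then in ZR-75-1, and that of the 20 without was -1.22, -0.90, -0.85 and -0.34. These are descriptions, without a test. A match is a run of letters and not a shown binding site.

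The stretches around the matches are shown for 7 members on which the results below turn, read 5′ to 3′ on the strand of the gene, with the E2F letters in capitals. MCM2 (chr3:127598397-127598430, plus strand, across the start) and MCM6 (chr2:135876506-135876611, minus strand, before the start) are subunits of one ring. The response to both drugs differed between the lines for MCM2, and that to palbociclib for MCM6. In MCM2, and at both places in MCM6, the capitals hold a pair of overlapping matches, one on each strand. CDT1 (chr16:88803738-88803777, plus strand) and GMNN (chr6:24775317-24775356, plus strand), a loader and its inhibitor, GINS2 (chr16:85688962-85689001, minus strand), PCNA (chr20:5126658-5126697, minus strand) and CLSPN (chr1:35769960-35769999, minus strand, across the start) were called lower in all 4 comparisons. The windows of MCM10, CDC45, PRIM1, RFC4, RFC5 and FEN1, which were also lower in all 4, did not hold these letters.
MCM2: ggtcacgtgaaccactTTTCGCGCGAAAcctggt
MCM6: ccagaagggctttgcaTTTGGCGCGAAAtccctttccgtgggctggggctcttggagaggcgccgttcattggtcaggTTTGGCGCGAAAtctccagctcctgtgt
CDT1: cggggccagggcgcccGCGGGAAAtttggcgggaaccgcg
GMNN: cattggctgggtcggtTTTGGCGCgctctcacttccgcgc
GINS2: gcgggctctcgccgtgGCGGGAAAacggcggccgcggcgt
PCNA: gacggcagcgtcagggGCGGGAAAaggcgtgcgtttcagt
CLSPN: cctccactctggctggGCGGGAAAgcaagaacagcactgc

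The origin recognition complex marks origins, and 2 of its 5 listed genes were called lower in any comparison with DMSO. ORC4, a subunit that is not a member here, was called lower with abemaciclib in CAMA-1 (-0.65, adjusted p = 0.0329) and in no other comparison with DMSO. ORC2, ORC3 and ORC5 were called in none of the 4, with log2 fold changes between -0.32 and 0.75. ORC1, the subunit whose level is known to be cell cycle-regulated (ENSG00000085840.13, chr1:52372829-52404423, minus strand), stood at 4.98, 3.85 and 3.09 CPM in the DMSO libraries of CAMA-1, 1.07, 0.441 and 0.952 under abemaciclib and 0.489, 1.16 and 0.347 under palbociclib. It was lower with both drugs (log2 fold change -2.13 and -2.48, SE 0.62 and 0.63, adjusted p = 0.00412 and 0.00118), on counts of 11 to 15 per library with DMSO and 1 to 4 with a drug. In ZR-75-1 it stood at 7.38, 4.51 and 6.77 CPM with DMSO, 0.324, 3.05 and 0 under abemaciclib and 3.84, 3.64 and 4.33 under palbociclib, and abemaciclib replicate 2, with 9 counts, lay above the other 2 libraries of its group, with 1 and 0. It fell with abemaciclib (-2.39, SE 0.59, adjusted p = 0.000755) and did not pass the test with palbociclib (-0.65, adjusted p = 0.317), although its 3 palbociclib libraries lay below the 3 DMSO libraries. ORC6 (ENSG00000091651.9, chr16:46689643-46698394, plus strand), the smallest subunit, was 28.0 ± 2.41 CPM with DMSO in CAMA-1 and fell to 16.8 ± 0.804 and 18.5 ± 1.61 CPM (-0.73 and -0.61, adjusted p = 0.00106 and 0.00507), while in ZR-75-1 it was 8.43 ± 0.721, 7.79 ± 2.47 and 8.6 ± 1.44 CPM, with groups that overlapped.

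Of the factors that bring MCM2-7 to origins, CDT1 (ENSG00000167513.9, chr16:88803789-88809258, plus strand) was lower in all 4 comparisons. In CAMA-1 it was 64.5, 70.0 and 67.9 CPM with DMSO, 19.2, 11.0 and 13.7 under abemaciclib and 22.5, 19.1 and 24.6 under palbociclib, with no overlap between a drug group and DMSO (-2.16 and -1.62, SE 0.16 and 0.15, adjusted p = 1.2e-14 and 6.58e-12). The ZR-75-1 libraries held 79.6, 74.3 and 61.0 CPM with DMSO, 41.7, 45.7 and 30.5 under abemaciclib and 62.6, 51.6 and 52.8 under palbociclib (-0.86 and -0.36, adjusted p = 5.64e-07 and 0.0251), and the palbociclib libraries overlapped the DMSO libraries. With 1 library left out, the latter call was lost in 4 of 6 such fits (adjusted p up to 0.158). CDC6, the ATPase that loads the ring together with CDT1 (ENSG00000094804.12, chr17:40287879-40304657, plus strand), was 49.8, 42.7 and 56.7 CPM in the DMSO libraries of CAMA-1 and fell to 15.8 ± 2.99 and 23.3 ± 4.16 CPM (-1.65 and -1.11, adjusted p = 1.61e-10 and 3.03e-07). In ZR-75-1 the groups lay at 26.0, 30.4 and 34.2, at 25.6, 25.0 and 24.7 and at 29.4, 37.0 and 37.3 CPM, and CDC6 passed the test with neither drug (-0.26 and 0.19, adjusted p = 0.233 and 0.405). Geminin, GMNN (ENSG00000112312.10, chr6:24774931-24786099, plus strand), showed the other pattern. It was 42.5, 51.5 and 47.96 CPM with DMSO, 13.1, 7.94 and 17.1 under abemaciclib and 17.1, 16.2 and 13.9 under palbociclib in CAMA-1, and 23.8, 30.1 and 22.0 CPM with DMSO, 9.71, 4.06 and 8.10 under abemaciclib and 13.7, 11.9 and 16.7 under palbociclib in ZR-75-1, with no overlap between a drug group and DMSO in either line. Its log2 fold changes were -1.85 and -1.58, SE 0.19 and 0.18, adjusted p = 5.4e-11 and 1.06e-09 in the former line, and -1.79 and -0.84, SE 0.25 and 0.22, adjusted p = 4.7e-08 and 0.0027 in the latter.

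All 6 subunits of the MCM2-7 ring fell with each drug in CAMA-1. In ZR-75-1 all 6 fell with abemaciclib and 1 of 6, MCM7, with palbociclib. MCM2 (ENSG00000073111.14, chr3:127598410-127622436, plus strand) was 167, 168 and 143 CPM with DMSO in CAMA-1, 35.5, 31.7 and 31.1 under abemaciclib and 59.4, 51.5 and 61.7 under palbociclib (-2.27 and -1.47, SE 0.11 and 0.10, adjusted p = 2.32e-20 and 1.46e-15), and the palbociclib libraries lay between the other groups with no overlap. In ZR-75-1 it was 66.8, 84.9 and 88.1 CPM with DMSO, 54.0, 53.5 and 59.4 under abemaciclib and 79.3, 78.0 and 85.8 under palbociclib, a smaller fall with abemaciclib (-0.52, SE 0.12, adjusted p = 0.000245) and a palbociclib group inside the DMSO range (0.02, adjusted p = 0.917). MCM7 (ENSG00000166508.18, chr7:100092233-100101940, minus strand) behaved more alike in both lines. In CAMA-1 it went from 80.4, 74.9 and 79.8 CPM to 21.9, 21.2 and 24.8 under abemaciclib and 39.6, 30.1 and 36.0 under palbociclib (-1.79 and -1.15, adjusted p = 2.04e-14 and 5.28e-10). In ZR-75-1 it went from 67.4, 66.2 and 63.0 CPM to 22.3, 20.3 and 22.4 CPM under abemaciclib and 41.2, 33.7 and 45.9 under palbociclib (-1.60 and -0.70, adjusted p = 1.42e-13 and 2.87e-05), again with no overlap.

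Among the other subunits of the ring, MCM4 had the smallest fall in CAMA-1, from 90.2 ± 4.39 CPM to 47.1 ± 2.45 and 53.8 ± 3.41 CPM (-0.94 and -0.75, adjusted p = 3.44e-09 and 2.82e-07). In ZR-75-1 its libraries held 113, 144 and 123 CPM with DMSO, 85.4, 99.2 and 74.4 under abemaciclib and 133, 129 and 137 under palbociclib (-0.55 and 0.07, adjusted p = 1.59e-05 and 0.665). MCM5 (ENSG00000100297.16, chr22:35400134-35425431, plus strand) was 57.2, 55.3 and 56.3 CPM with DMSO, 15.8, 11.5 and 19.4 under abemaciclib and 25.7, 29.8 and 25.3 under palbociclib in CAMA-1 cells (-1.83 and -1.06, adjusted p = 1.43e-12 and 1.07e-07). Its ZR-75-1 libraries held 40.4, 42.4 and 32.9 CPM with DMSO, 15.2, 27.4 and 16.2 under abemaciclib and 43.6, 40.7 and 40.7 under palbociclib, so that the lower level was seen with abemaciclib (-0.97, adjusted p = 1.01e-05) and the palbociclib group overlapped DMSO (0.11, adjusted p = 0.66). MCM6 fell in ZR-75-1 with abemaciclib from 26.7 ± 5.32 to 8.17 ± 1.44 CPM (-1.72, adjusted p = 8.88e-09), and MCM3 from 47.55 ± 4.06 to 33.2 ± 1.47 CPM (-0.52, adjusted p = 0.00272). Subunits of one ring thus differed in the size of their fall in ZR-75-1, from -0.52 for MCM3 and -0.52 for MCM2 to -1.72 for MCM6 with abemaciclib. In CAMA-1 the 6 falls with abemaciclib ran from -0.94 to -2.27.

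MCM10, which is not part of the ring but helps to activate it (ENSG00000065328.16, chr10:13161558-13211110, plus strand), had the largest fall of all members with abemaciclib in CAMA-1. Its level went from 71.8, 90.3 and 92.4 CPM to 6.41, 10.1 and 7.94 CPM (-3.42, SE 0.18, adjusted p = 1.93e-19), and to 23.9, 15.9 and 21.8 CPM with palbociclib (-2.04, SE 0.15, adjusted p = 8.02e-15). In ZR-75-1 it went from 34.99, 43.0 and 36.6 CPM to 4.85, 6.09 and 4.63 with abemaciclib (-2.87, SE 0.23, adjusted p = 7.9e-16) and 25.5, 20.2 and 29.5 with palbociclib (-0.60, SE 0.17, adjusted p = 0.00524). No drug group overlapped its DMSO group. The palbociclib call in ZR-75-1 was lost without palbociclib replicate 2 (adjusted p = 0.0508). MCM8, a relative of the ring that acts in recombination repair, was 61.7 ± 9.83 CPM in CAMA-1 with DMSO, and fell to 31.7 ± 3.24 and 35.4 ± 4.96 CPM (-0.96 and -0.83, adjusted p = 4.38e-07 and 4.78e-06). Its level in ZR-75-1 was 36.2 ± 3.43, 26.8 ± 4.93 and 35.2 ± 1.00 CPM (-0.43 and -0.04, adjusted p = 0.0311 and 0.868), and the abemaciclib call was lost in 3 of 6 fits (adjusted p up to 0.201) with 1 library left out.

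CDC7 and DBF4 form the kinase that fires licensed origins, DBF4 being the activating subunit. DBF4 fell from 56.2 ± 5.87 to 27.7 ± 1.37 and 29.2 ± 3.53 CPM in CAMA-1 (-1.02 and -0.94, adjusted p = 1.55e-07 and 4.46e-07), and in ZR-75-1 from 64.6 ± 0.755 to 37.8 ± 4.93 CPM with abemaciclib (-0.77, adjusted p = 4.23e-06), against 55.4 ± 8.62 CPM with palbociclib (-0.23, adjusted p = 0.175). SLC25A40, which overlaps DBF4 on the opposite strand, fell in all 4 comparisons as well, by 1.70, 1.38, 1.11 and 0.75 on the log2 scale, and reads of the pair cannot be told apart without strand. CDC7 (ENSG00000097046.13, chr1:91500851-91525764, plus strand) had few reads. Its CAMA-1 libraries held 18, 20 and 21 counts with DMSO, 11, 2 and 6 with abemaciclib and 11, 12 and 7 with palbociclib. It was called lower with abemaciclib in that line only (-1.52, adjusted p = 0.00724, against 0.0534, 0.0899 and 0.995 in the others), with no test that the comparisons differed.

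CDC45 and the 4 GINS subunits turn the ring into a moving helicase. CDC45 (ENSG00000093009.11, chr22:19479457-19520612, plus strand) was 28.9, 25.9 and 28.5 CPM with DMSO in CAMA-1, 4.81, 4.41 and 6.35 under abemaciclib and 11.7, 6.95 and 8.67 under palbociclib (-2.40 and -1.59, SE 0.25 and 0.22, adjusted p = 1.33e-10 and 1.58e-07). ZR-75-1 had 25.4, 19.9 and 21.0 CPM with DMSO, 5.18, 5.75 and 4.24 under abemaciclib and 12.1, 13.9 and 12.1 under palbociclib (-2.11 and -0.80, SE 0.27 and 0.22, adjusted p = 2.44e-09 and 0.00444). In both lines the 3 groups were apart from one another. GINS2 (ENSG00000131153.9, chr16:85676198-85690073, minus strand) was 53.2, 58.8 and 51.3 CPM with DMSO, 9.88, 10.6 and 9.52 under abemaciclib and 16.9, 18.5 and 22.5 under palbociclib in CAMA-1 cells (-2.44 and -1.50, adjusted p = 3.14e-15 and 1.13e-10), and 23.1, 31.0 and 21.7 CPM with DMSO, 9.38, 5.75 and 8.87 under abemaciclib and 15.9, 16.5 and 18.2 under palbociclib in ZR-75-1 (-1.66 and -0.59, adjusted p = 5.95e-08 and 0.0261). Its palbociclib call in ZR-75-1 was lost in 3 of 6 fits (adjusted p up to 0.216) with 1 library left out. GINS1 moved with it in CAMA-1 (-1.85 and -1.05) and with abemaciclib in ZR-75-1 (-0.91). GINS4 was 54.2 ± 4.46, 28.6 ± 1.69 and 27.9 ± 5.60 CPM in CAMA-1, where it fell (-0.92 and -0.94, adjusted p = 1.73e-06 and 9.59e-07), and 17.6 ± 0.761, 18.4 ± 1.60 and 21.6 ± 2.64 CPM in ZR-75-1, where it passed the test with neither drug. GINS3 was called lower with palbociclib in CAMA-1 alone (-0.77, adjusted p = 0.0327), and that call was lost in 4 of 6 fits (adjusted p up to 0.162) with 1 library left out.

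Polymerase alpha-primase lays down the primers. Its accessory subunit POLA2 (ENSG00000014138.9, chr11:65261913-65305959, plus strand) was 56.2, 49.0 and 47.5 CPM with DMSO in CAMA-1, 18.4, 16.8 and 10.8 under abemaciclib and 25.7, 23.2 and 24.3 under palbociclib (-1.72 and -1.06, adjusted p = 3.06e-11 and 4.28e-07), and 16.0 ± 3.88, 7.75 ± 0.917 and 13.2 ± 1.52 CPM in ZR-75-1 (-1.05 and -0.28, adjusted p = 0.0011 and 0.41). POLA1, the catalytic subunit, followed the same calls (-1.26, -1.18, -0.74 and -0.39). PRIM1, the catalytic primase subunit (ENSG00000198056.15, chr12:56730438-56752374, minus strand), had the largest fall among called members with palbociclib in ZR-75-1, on low counts. Its CAMA-1 libraries held 42, 28 and 62 counts with DMSO, 3, 4 and 14 with abemaciclib and 34, 11 and 14 with palbociclib (-2.47 and -1.21, SE 0.42 and 0.35, adjusted p = 4.73e-06 and 0.005). Its ZR-75-1 libraries held 29, 29 and 38 counts with DMSO, 15, 8 and 2 with abemaciclib and 12, 10 and 18 with palbociclib (-1.83 and -1.37, SE 0.42 and 0.39, adjusted p = 0.000359 and 0.00497). The drug groups did not overlap DMSO in either line. PRIM1 shares its strand and part of its span with NACA, which had 9223% of its counts. In CAMA-1 NACA was also lower under each drug (-0.29 and -0.24, adjusted p = 0.000311 and 0.00317) and in ZR-75-1 it was not called (-0.04 and -0.16, adjusted p = 0.647 and 0.0556). PRIM2 was called with abemaciclib in CAMA-1 (-1.01, adjusted p = 0.0039) and in no other comparison with DMSO.

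Polymerase delta copies the lagging strand and polymerase epsilon the leading strand. POLD3 (ENSG00000077514.9, chr11:74493851-74669117, plus strand), an accessory subunit of delta, was lower in all 4 comparisons, from 142, 153 and 152 CPM to 47.0, 52.0 and 50.2 CPM under abemaciclib and 67.7, 80.8 and 69.0 under palbociclib in CAMA-1 (-1.59 and -1.04, SE 0.10 and 0.10, adjusted p = 1.06e-16 and 6.38e-12) and from 22.5, 20.5 and 25.4 to 5.82, 8.46 and 6.17 CPM under abemaciclib and 15.1, 12.6 and 17.3 under palbociclib in ZR-75-1 (-1.73 and -0.59, adjusted p = 7.36e-08 and 0.0307). The last of these calls was lost in 4 of 6 fits (adjusted p up to 0.125) with 1 library left out. POLD2, another accessory subunit (ENSG00000106628.10, chr7:44114631-44124358, minus strand), fell in CAMA-1 from 98.0, 104 and 96.6 CPM to 72.6, 61.3 and 62.9 CPM under abemaciclib and 72.1, 59.1 and 74.5 under palbociclib (-0.59 and -0.54, adjusted p = 2e-05 and 6.86e-05). In ZR-75-1 the level was 110.4, 104 and 101 CPM with DMSO, 91.3, 93.8 and 94.1 under abemaciclib and 127, 125 and 133 under palbociclib. It rose with palbociclib (0.29, SE 0.09, adjusted p = 0.0122), with all 3 palbociclib libraries above DMSO, and this call was lost in 2 of 6 such fits (adjusted p up to 0.0666). The catalytic subunit POLD1 stood at 9.15 ± 1.61, 4.09 ± 0.336 and 3.86 ± 1.23 CPM in CAMA-1 (-1.18 and -1.28, adjusted p = 0.00764 and 0.00377) and at 7.29 ± 1.49, 2.85 ± 0.802 and 5.76 ± 2.33 CPM in ZR-75-1 (-1.33 and -0.36, adjusted p = 0.0111 and 0.526). POLE2 (ENSG00000100479.13, chr14:49643555-49688422, minus strand), a subunit of epsilon, had 30, 20 and 36 counts in the DMSO libraries of CAMA-1, 9, 4 and 9 after abemaciclib and 12, 11 and 5 after palbociclib (-1.82 and -1.66, SE 0.42 and 0.40, adjusted p = 0.000393 and 0.000724), and passed the test with neither drug in ZR-75-1. The catalytic subunit POLE fell in CAMA-1 (-1.06 and -1.15). Its abemaciclib call in ZR-75-1 (-0.56, adjusted p = 0.049) was lost in 4 of 6 such fits (adjusted p up to 0.271) and with DESeq2 (adjusted p = 0.178).

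PCNA (ENSG00000132646.11, chr20:5114953-5126626, minus strand), the ring that tethers the polymerases to DNA, was lower in all 4 comparisons. It was 98.4, 114 and 95.2 CPM with DMSO in CAMA-1, 20.6, 15.9 and 15.6 under abemaciclib and 35.9, 28.1 and 38.1 under palbociclib (-2.54 and -1.59, SE 0.14 and 0.13, adjusted p = 1.66e-18 and 1.03e-13). The ZR-75-1 libraries held 32.7, 51.5 and 44.04 CPM with DMSO, 13.3, 6.77 and 11.2 under abemaciclib and 27.4, 34.7 and 27.4 under palbociclib (-2.04 and -0.53, SE 0.21 and 0.17, adjusted p = 3.84e-12 and 0.016). DMSO replicate 1 of ZR-75-1, at the low end of its group, lay inside the range of the palbociclib libraries, and the palbociclib call was lost in 3 of 6 fits (adjusted p up to 0.17) with 1 library left out. The clamp loader, which opens PCNA around DNA, has 5 subunits. RFC4 (ENSG00000163918.10, chr3:186789880-186807058, minus strand) was 42.9, 38.86 and 51.5 CPM with DMSO, 15.5, 8.82 and 16.2 under abemaciclib and 10.3, 18.2 and 17.0 under palbociclib in CAMA-1 and 29.2, 29.8 and 23.0 CPM with DMSO, 19.1, 10.2 and 7.71 under abemaciclib and 14.0, 10.9 and 12.1 under palbociclib in ZR-75-1. It fell in all 4 comparisons (-1.68 and -1.58, SE 0.20 and 0.19, adjusted p = 2.77e-09 and 6.64e-09 in the former line, -1.13 and -1.14, SE 0.23 and 0.23, adjusted p = 6.99e-05 and 6.45e-05 in the latter). EIF4A2, on the opposite strand at the same place with 295% of the counts of RFC4, rose in CAMA-1 by 1.203 and 1.15 on the log2 scale, with abemaciclib and palbociclib in turn, and was not called in ZR-75-1. RFC5 fell in all 4 (-2.15, -1.63, -0.97 and -0.58), with the palbociclib call in ZR-75-1 lost in 5 of 6 such fits (adjusted p up to 0.164). RFC2 and RFC3 fell in 3 of 4, RFC3 from 43.4 ± 3.30 to 24.7 ± 3.39 CPM with abemaciclib in CAMA-1 (-0.81, adjusted p = 7.32e-05). RFC1 (ENSG00000035928.16, chr4:39287456-39366375, minus strand), the large subunit, held 167, 139 and 148 CPM with DMSO in CAMA-1, 118, 130.1 and 119 under abemaciclib and 122, 139 and 120.3 under palbociclib. Its calls there were for small falls (-0.31 and -0.25, adjusted p = 0.00526 and 0.0247), and both were lost without DMSO replicate 1 (adjusted p = 0.0542 and 0.161), the palbociclib call also without palbociclib replicate 1 or 3. RFC1 was called with neither drug in ZR-75-1 (-0.09 and -0.06).

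FEN1 (ENSG00000168496.4, chr11:61792911-61797238, plus strand), the nuclease that trims the flaps between lagging-strand fragments, was 80.1, 81.2 and 90.7 CPM with DMSO, 22.7, 18.1 and 25.1 under abemaciclib and 33.0, 31.6 and 29.1 under palbociclib in CAMA-1 (-1.92 and -1.43, SE 0.14 and 0.13, adjusted p = 1.99e-15 and 2.12e-12). In ZR-75-1 it was 80.9, 84.9 and 73.5 CPM with DMSO, 40.8, 42.3 and 42.8 under abemaciclib and 62.8, 58.8 and 67.9 under palbociclib (-0.93 and -0.34, SE 0.12 and 0.11, adjusted p = 4.74e-09 and 0.0178), with no overlap between any of the groups in either line. The palbociclib call in ZR-75-1 was lost in 3 of 6 fits (adjusted p up to 0.0935) with 1 library left out. LIG1 (ENSG00000105486.14, chr19:48115445-48170603, minus strand), the ligase that joins the fragments, was 44.9, 50.1 and 46.5 CPM with DMSO, 18.4, 18.5 and 21.0 under abemaciclib and 23.5, 20.3 and 19.1 under palbociclib in CAMA-1 cells (-1.28 and -1.16, adjusted p = 6.61e-09 and 3.54e-08), and 20.2, 26.5 and 25.1 CPM with DMSO, 12.3, 10.8 and 8.48 under abemaciclib and 24.1, 20.8 and 21.1 under palbociclib in ZR-75-1. There it fell with abemaciclib (-1.17, adjusted p = 1.47e-05), while its palbociclib libraries lay within the DMSO range (-0.12, adjusted p = 0.701).

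The single-strand binding protein RPA has 3 subunits, of which RPA3 alone was called lower in ZR-75-1. RPA3, the smallest (ENSG00000106399.11, chr7:7636518-7718607, minus strand), was 87.4, 82.3 and 83.3 CPM with DMSO, 27.0, 23.4 and 21.0 under abemaciclib and 36.9, 29.2 and 32.2 under palbociclib in CAMA-1 (-1.82 and -1.35, SE 0.14 and 0.13, adjusted p = 7.52e-15 and 6.8e-12), and 160.5, 142 and 137 CPM with DMSO, 54.0, 61.3 and 60.5 under abemaciclib and 96.6, 107 and 103 under palbociclib in ZR-75-1 (-1.32 and -0.52, SE 0.10 and 0.09, adjusted p = 2.49e-16 and 1.39e-05). Its fall was kept in every fit with 1 library left out. RPA1, the large subunit (ENSG00000132383.12, chr17:1829702-1900082, plus strand), fell in CAMA-1 from 46.2, 37.5 and 46.3 CPM to 22.7, 21.6 and 25.4 CPM under abemaciclib and 24.4, 24.9 and 30.5 under palbociclib (-0.90 and -0.72, adjusted p = 8.05e-06 and 0.00015). Its level in ZR-75-1 was 24.1, 31.0 and 18.3 CPM with DMSO, 23.3, 29.8 and 26.6 with abemaciclib (0.11, adjusted p = 0.684) and 35.4, 31.4 and 33.8 with palbociclib. It was called higher with palbociclib (0.45, SE 0.17, adjusted p = 0.0429). Leaving out 1 library ended this call in 5 of 6 such fits (adjusted p up to 0.298), as did DESeq2 (adjusted p = 0.155) and upper-quartile scaling (adjusted p = 0.0542). RPA2 fell in CAMA-1 (-0.86 and -0.66) and was 21.3 ± 1.90, 27.5 ± 3.89 and 25.4 ± 4.45 CPM in ZR-75-1, where it passed the test with neither drug.

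Claspin, CLSPN (ENSG00000092853.14, chr1:35720218-35769978, minus strand), which links the moving fork to the checkpoint kinase CHK1, had the smallest p of all members in each of the 4 comparisons with DMSO. In CAMA-1 it was 146, 146 and 146 CPM with DMSO, 21.9, 22.0 and 22.9 under abemaciclib and 43.98, 46.0 and 51.3 under palbociclib (-2.71 and -1.64, SE 0.12 and 0.10, adjusted p = 1.99e-22 and 5.63e-17). ZR-75-1 had 79.6, 88.5 and 109 CPM with DMSO, 10.4, 9.14 and 9.25 under abemaciclib and 46.1, 59.2 and 51.7 under palbociclib (-3.26 and -0.82, SE 0.17 and 0.12, adjusted p = 6.79e-24 and 3.64e-07). The 3 groups of each line did not overlap, and the fall with abemaciclib in ZR-75-1 was the largest of any member there. TIMELESS and TIPIN form the complex that keeps the helicase and polymerases together. TIMELESS (ENSG00000111602.12, chr12:56416363-56449426, minus strand) was 54.7 ± 7.34, 22.3 ± 1.90 and 24.4 ± 5.58 CPM in CAMA-1 (-1.30 and -1.15, adjusted p = 7.87e-09 and 5.52e-08) and 39.5 ± 1.76, 19.5 ± 3.41 and 33.3 ± 2.98 CPM in ZR-75-1 (-1.02 and -0.24, adjusted p = 1.56e-06 and 0.251). TIPIN and WDHD1, which couples the helicase to polymerase alpha, were lower in the same 3 comparisons. SLBP, which binds the stem-loop of histone messages (ENSG00000163950.13, chr4:1692731-1712344, minus strand), fell from 37.1 ± 4.24 to 18.6 ± 0.573 and 24.1 ± 5.59 CPM in CAMA-1 (-0.996 and -0.65, adjusted p = 9.2e-06 and 0.00156) and from 36.8 ± 2.92 to 21.8 ± 3.09 CPM with abemaciclib in ZR-75-1 (-0.75, adjusted p = 0.000252), and was 28.9 ± 1.956 CPM with palbociclib (-0.34, adjusted p = 0.0992).

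**Figure D3:**
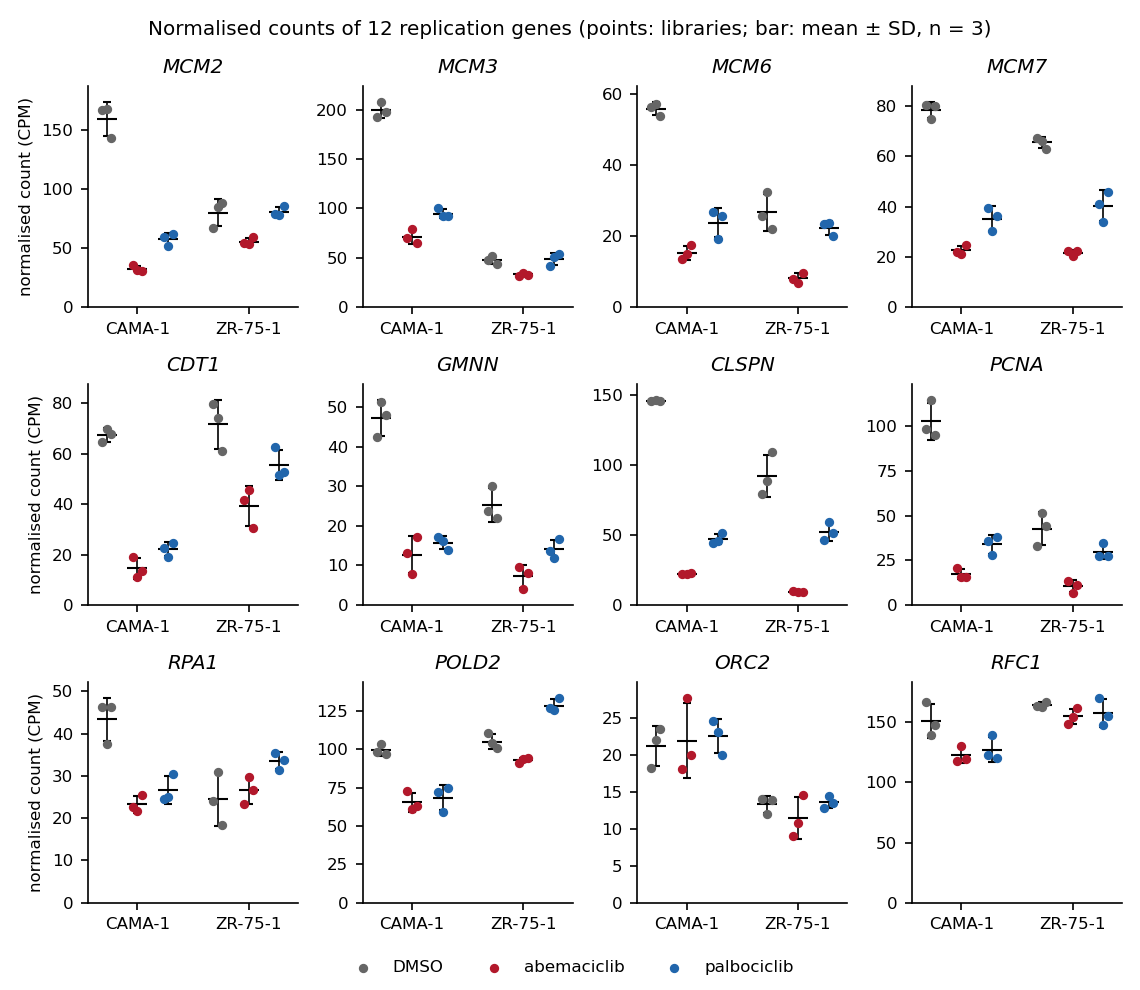
Normalised counts (CPM) of 12 members in each library, by line and treatment, with the mean and SD of each group of 3 as bars and each vertical axis starting at 0. CLSPN and PCNA drop in both lines, MCM2 drops further in CAMA-1 than in ZR-75-1, and the steps of RFC1 are small.

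Abemaciclib and palbociclib, 2 different inhibitors of the same kinases, were compared with each other at the same dose and time. In CAMA-1, 12 of 48 members were lower with abemaciclib than with palbociclib and 0 higher, against 1.53% and 0.796% of all genes tested, with a median difference of -0.36 on the log2 scale. In ZR-75-1, 23 were lower and 0 higher, against 7.94% and 5.23%, with a median of -0.54. CLSPN had the smallest p of all members in each line, with differences of -1.07 and -2.44, SE 0.13 and 0.18, adjusted p = 2.42e-07 and 8.9e-17, CAMA-1 first. In CAMA-1 it was followed by MCM2 (-0.80, adjusted p = 2.76e-05), MCM10 (-1.38, adjusted p = 3.78e-05), PCNA (-0.95, adjusted p = 0.000173) and POLD3 (-0.55, adjusted p = 0.00157). In ZR-75-1 it was followed by MCM10 (-2.26, adjusted p = 6.26e-11), RPA3 (-0.80, adjusted p = 3.1e-08), PCNA (-1.51, adjusted p = 2.32e-07) and MCM6 (-1.46, adjusted p = 2.53e-06). These 5 members of each line had abemaciclib libraries that lay wholly below the palbociclib libraries. No call was made for 36 members in CAMA-1 and 25 in ZR-75-1. RFC4 differed by -0.10 in CAMA-1 (95% interval -0.55 to 0.35) and by 0.01 in ZR-75-1 (-0.48 to 0.51), GINS4 by 0.02 in CAMA-1 (-0.29 to 0.33), and RFC1 by -0.06 (-0.24 to 0.12) and -0.03 (-0.19 to 0.14). With 1 library left out, 6 of the 12 calls in CAMA-1 and 6 of the 23 in ZR-75-1 were lost in at least 1 fit.

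**Figure D4:**
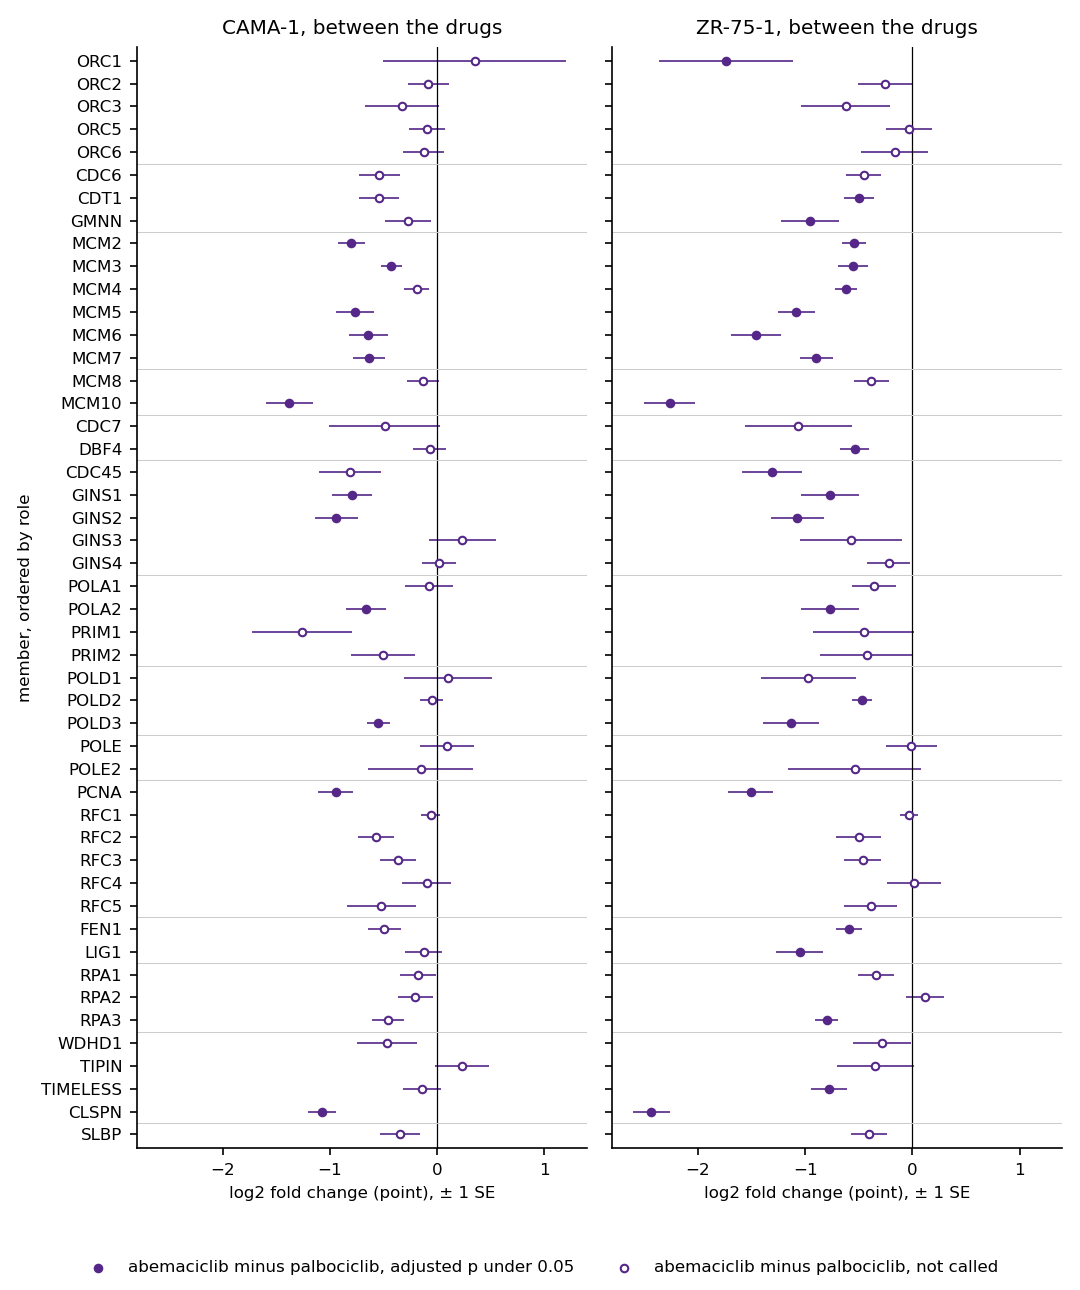
Log2 difference of abemaciclib from palbociclib for each member (rows, ordered by role), one panel per cell line, with bars of the SE on either side. Filled points passed an adjusted p of 0.05, and all of the filled points lie to the left of 0.

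The response of each line was then compared within one fit over all 18 libraries, by subtracting the log2 fold change of CAMA-1 from that of ZR-75-1. For abemaciclib, 13 members had a higher log2 fold change in ZR-75-1, that is, a smaller fall or a rise, and 0 a lower one. Of all genes tested, 8.19% were called higher and 10.0% lower, and the median difference of the members was 0.47. For palbociclib, 25 were higher and 0 lower, against 10.0% and 10.3%, with a median of 0.79. The 13 were CDC6, CDT1, MCM2, MCM3, MCM5, GINS1, GINS4, POLD2, RFC5, FEN1 and the 3 RPA genes. MCM2 led both comparisons (1.72, SE 0.17, adjusted p = 9.14e-13 for abemaciclib and 1.46, SE 0.15, adjusted p = 1.19e-11 for palbociclib). The next for abemaciclib were MCM3 (0.95, adjusted p = 9.75e-06), CDT1 (1.27, adjusted p = 1.03e-05), CDC6 (1.36, adjusted p = 2.46e-05) and FEN1 (0.97, adjusted p = 4.7e-05). The next for palbociclib were MCM3 (1.07, adjusted p = 1.12e-07), FEN1 (1.06, adjusted p = 1.11e-06), MCM10 (1.41, adjusted p = 2.56e-06) and CDT1 (1.23, adjusted p = 2.88e-06). The 6 members named here with values fell with both drugs in CAMA-1, while in ZR-75-1 CDC6 passed the test with neither drug, and MCM2 and MCM3 did not pass it with palbociclib. Of the rest of the 13, GINS4 and RPA2 passed with neither drug in ZR-75-1, MCM5 and GINS1 fell with abemaciclib and did not pass with palbociclib, and POLD2 and RPA1 were not called with abemaciclib and were called higher with palbociclib.

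Not every member differed between lines. With abemaciclib, GMNN differed by 0.03 (95% interval -0.62 to 0.69), LIG1 by 0.09 (-0.43 to 0.61), RFC3 by -0.00022 (-0.48 to 0.47) and MCM7 by 0.17 (-0.23 to 0.57). CLSPN had the lowest difference of all members for abemaciclib, towards a larger fall in ZR-75-1 (-0.57, SE 0.22, adjusted p = 0.0626), and it did not pass the test. The difference between the drugs was also compared between the lines. CLSPN (-1.36, SE 0.23, adjusted p = 3.14e-05) and LIG1 (-0.92, SE 0.27, adjusted p = 0.047) were called, both with a wider gap between abemaciclib and palbociclib in ZR-75-1, so that 2 members were lower and 0 higher, against 1.77% and 1.03% of all genes, with a median of -0.24. CLSPN kept its call in every alternative fit, and LIG1 lost it in 12 of 12 fits (adjusted p up to 0.165) with 1 library left out. POLD2 (-0.41, adjusted p = 0.126), MCM6 (-0.82, adjusted p = 0.142) and MCM4 (-0.42, adjusted p = 0.164) came next and did not pass.

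**Figure D5:**
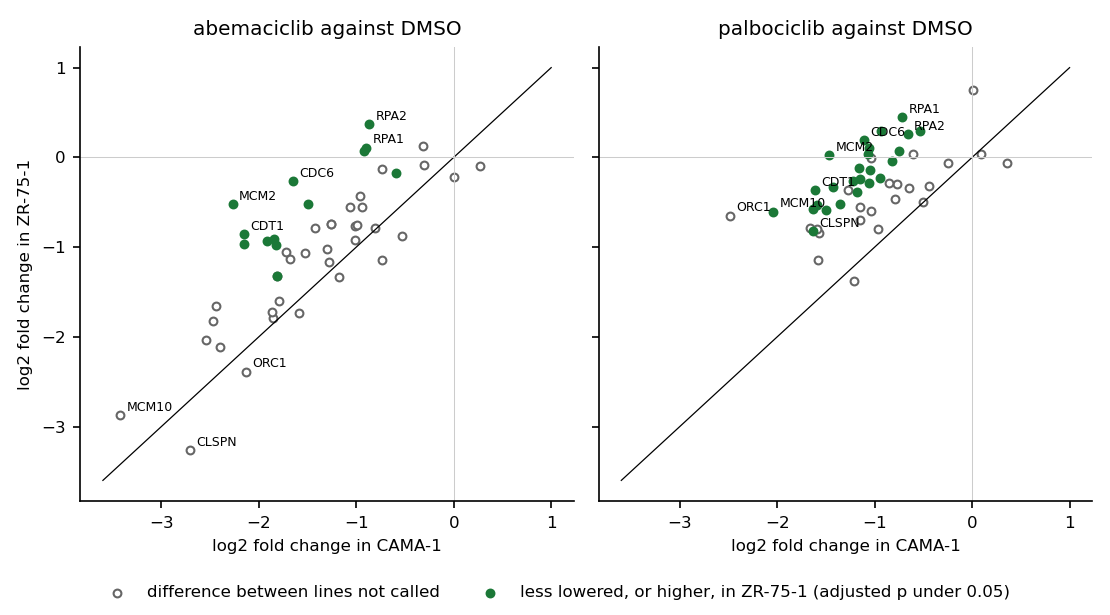
Log2 fold change of each member against DMSO in CAMA-1 (horizontal axis) and ZR-75-1 (vertical axis), for abemaciclib and palbociclib, with a line where both are equal. Filled points had a response that differed between lines at an adjusted p under 0.05, and all of them lie above the line.

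The lines also differed before any drug. With DMSO, 26 of 48 members were lower in ZR-75-1 than in CAMA-1 and 4 higher, against 29.8% and 31.5% of all genes tested, with a median of -0.61. With scaling set over all 18 libraries, POLD3 was 136, 146 and 147 CPM in CAMA-1 and 22.9, 20.9 and 25.9 CPM in ZR-75-1 (-2.63, SE 0.13, adjusted p = 2.02e-27), and MCM3 was 185, 198 and 191 and 48.8, 52.5 and 44.2 CPM (-1.98, SE 0.10, adjusted p = 1.95e-25). GINS4 was 47.3, 55.3 and 53.8 and 17.0, 18.4 and 18.3 CPM (-1.54, adjusted p = 1.7e-12), and MCM2 was 160.3, 161 and 139 and 68.1, 86.5 and 89.8 CPM (-0.91, adjusted p = 1.39e-11). These members were lower in ZR-75-1 in all libraries. RPA3 went the other way, at 84.0, 78.7 and 80.7 CPM in CAMA-1 and 164, 145 and 139.9 CPM in ZR-75-1 (0.88, SE 0.10, adjusted p = 1.75e-11), as did MCM4 (84.0, 84.1 and 92.1 and 115, 147 and 125 CPM, 0.57, adjusted p = 1.71e-06). The other 2 higher calls, DBF4 (0.29, adjusted p = 0.0393) and RFC1 (0.20, adjusted p = 0.0353), were lost in 6 of 6 such fits (adjusted p up to 0.29) and in 5 of 6 fits (adjusted p up to 0.409) with 1 library left out. FEN1 (0.01, adjusted p = 0.969, 95% interval -0.21 to 0.22) and CDT1 (0.17, adjusted p = 0.252) did not pass the test. On this joint scale the members summed to 1869 ± 71.0 CPM in ZR-75-1 and 2585 ± 25.2 CPM in CAMA-1 with DMSO, and to 1090 ± 26.6 and 1007 ± 23.4 CPM with abemaciclib.

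A further 33 genes of replication, which are not members, were listed by name, with earlier results of these data known. Of these, 28 were tested in each line. In CAMA-1, 18 were lower and 1 higher with abemaciclib, against 20.1% and 20.3% of all genes tested. Palbociclib there gave 18 lower and 0 higher, against 18.7% and 18.4%. In ZR-75-1, abemaciclib gave 14 lower and 1 higher, against 18.3% and 17.9%. With palbociclib, 7 were lower and 3 higher in that line, against 13.4% and 14.5%. The median log2 fold changes of the listed genes tested were -0.76, -0.67, -0.42 and -0.25, in the same order. The largest falls were those of PCLAF, a partner of PCNA (-3.43 and -2.54 in CAMA-1, and -4.33 in ZR-75-1 with abemaciclib), and TOP2A, the topoisomerase that separates linked chromosomes (-2.37, -1.91 and -4.14). With palbociclib in ZR-75-1 they were those of TICRR, which helps origins to fire (-1.42), and TOP2A (-1.29). The genes called higher were TOP1 with abemaciclib in CAMA-1 (0.30, adjusted p = 0.000284), POLE3 with abemaciclib in ZR-75-1 (0.34, adjusted p = 0.000551), and POLE3 (0.31), RECQL4 (0.34) and RNASEH2C (0.40) with palbociclib in ZR-75-1.

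Some members overlap another expressed gene, and whether counting used strand is not given in the sources used here. GSE1, opposite GINS2, had 1056% of its counts, and WSB2, opposite RFC5, had 252%. FADS2, on the same strand as FEN1, had 208%. Opposite MCM7, GINS1, RPA1 and RPA3 lay AP4M1, NINL, SMYD4 and UMAD1, which had 33.2, 15.6, 17.3 and 13.3% of their counts. GSE1 rose in CAMA-1 with both drugs (log2 fold changes 0.50 and 0.42), where GINS2 fell, was not called with abemaciclib in ZR-75-1 and fell there with palbociclib (-0.26, adjusted p = 0.00684), as GINS2 did. WSB2 rose with abemaciclib in CAMA-1 (0.45) and ZR-75-1 (0.68), where RFC5 fell, and was not called with palbociclib. FADS2, AP4M1, SMYD4 and UMAD1 were called in none of the 4 comparisons with DMSO, and NINL in neither comparison of CAMA-1, the line in which it was tested. The values of these members are less certain than those of the others.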

How the data were processed

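3′-end messenger RNA sequencing (Lexogen QuantSeq) was done on 18 libraries of CAMA-1 and ZR-75-1. The deposited table holds whole-number read counts per gene, which the authors made by trimming reads, aligning them with STAR 2.7.5b to hg38 and counting them with featureCounts 2.0.1. The kit's strand is given differently in the labels and the methods. Strand setting, treatment of reads with several alignments and molecular identifiers are not given in the sources used here, so that floors cover counting error only.

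Samples were grouped by the line and treatment in their labels. Counts were tested in edgeR 4.0.16 (R 4.3.3): filterByExpr, TMM scaling and a quasi-likelihood F test, with Benjamini-Hochberg adjustment over all genes tested. Each line was fitted on its 9 libraries. Differences between lines came from 1 fit of 18 libraries with 6 groups, so fold changes differ slightly between fits. The SE was taken from the fold change and its F statistic, and the 95% interval as 1.96 SE. The biological coefficient of variation was 8.12% in CAMA-1 and 8.30% in ZR-75-1. The study used DESeq2, run here (1.42.0) as an alternative beside RLE and upper-quartile scaling, no filter, a mean of at least 10 counts, mitochondrial rows left out, a replicate block, 1 fit of 18 libraries, a 2-fold minimum and each library left out in turn. The test was checked on simulated data.

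The members and lists were chosen with earlier results of these data known. Values per library were given for the 3 largest falls called and each member called higher in a comparison with DMSO, at least 1 member of each role, and the 5 smallest p-values between drugs and between lines. The count ratios, GINS3, MCM3 and MCM6 beside them, and the pairs shown without a call were chosen after seeing values. Coordinates are from GENCODE release 44 on GRCh38 and promoter windows from RefSeq on GRCh38.p14.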

Additional observations from a re-analysis of the deposited data

Results flagged for a closer look

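The results brought together here are differences in response between the lines that passed the test of the difference itself, an interaction in one edgeR fit over the 18 libraries with Benjamini-Hochberg adjustment. Values are log2 fold changes in ZR-75-1 minus those in CAMA-1, so that a positive value is a smaller fall, or a rise, in ZR-75-1. For abemaciclib, these differences were 1.36 for CDC6, 1.27 for CDT1, 1.72 for MCM2, 0.95 for MCM3, 0.83 for MCM5, 0.91 for GINS1, 0.97 for GINS4, 0.39 for POLD2, 1.16 for RFC5, 0.97 for FEN1, 0.98 for RPA1, 1.22 for RPA2 and 0.47 for RPA3. With 1 library left out, the calls of MCM5, GINS1, POLD2, RFC5 and RPA3 were lost in 1, 5, 5, 3 and 4 of 12 fits, and the other 8 were kept in all 12.

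For palbociclib, the licensing and helicase genes differed by 1.27 (CDC6), 1.23 (CDT1), 1.46 (MCM2), 1.07 (MCM3), 0.79 (MCM4), 1.14 (MCM5), 0.94 (MCM6), 0.75 (MCM8), 1.41 (MCM10), 0.69 (DBF4), 0.88 (GINS1), 0.89 (GINS2) and 1.203 (GINS4). The fork genes differed by 0.76 (POLA1), 0.74 (POLA2), 0.80 (POLD2), 1.04 (PCNA), 1.03 (RFC5), 1.06 (FEN1), 1.01 (LIG1), 1.14 (RPA1), 0.89 (RPA2), 0.80 (RPA3), 0.89 (TIMELESS) and 0.79 (CLSPN). With 1 library left out, GINS1, POLA1, POLA2 and RFC5 lost their calls in 2, 6, 7 and 2 of 12 fits, and the other 21 kept theirs. The gap between abemaciclib and palbociclib differed between the lines for CLSPN (-1.36) and LIG1 (-0.92), in both towards a wider gap in ZR-75-1. No group had the 4 samples that a search for single outlying libraries needs.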

How the results depend on the processing

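Of 480 results (48 members in 10 comparisons), 242 were called. With the 2-fold minimum set aside, 192 of these were kept in every alternative and every fit with 1 library left out. Of the 192, 2 (ORC1 in CAMA-1) were not tested in some. The remaining 50 were lost in at least 1 of these fits, and 0 changed sign. Of 238 that were not called, 27 gained a call somewhere and 73 changed sign. In the count of members called lower with palbociclib in ZR-75-1, DESeq2 gave 8, a 2-fold minimum 2 and fits with 1 library left out 9 to 13, and for members called higher upper-quartile scaling, no filter on low counts and DESeq2 gave 1 each, a 2-fold minimum 0 and the fits with 1 library left out 0 to 3. A 2-fold minimum left 28 lower with palbociclib in CAMA-1 and, for abemaciclib in ZR-75-1, 18. The median with abemaciclib in CAMA-1 was -1.43 over members with a mean of at least 10 counts, -1.42 without mitochondrial rows and -1.42 in 1 fit of all 18 libraries, and -1.51 to -1.40 with 1 library left out. For the abemaciclib response between lines, the median was 0.37 to 0.55 and the members called lower 0 to 1 with 1 library left out. For the gap between drugs compared between lines, 1 member was called lower with RLE scaling, upper-quartile scaling, no filter, a mean of at least 10 counts and the replicate block, and in each fit with 1 library left out (1 to 1). For the DMSO comparison of lines, 2 members were higher without the filter, with a mean of at least 10 counts and with the replicate block, and 2 to 3 with 1 library left out, and its median then ran from -0.70 to -0.51. The cause of these changes was not tested, beyond the smaller number of libraries or the stricter threshold where these define the alternative. Samples with the same replicate number did not deviate together (correlations of -0.05 to 0.03, and 2 of 18 libraries closest to their own number). No effect shared by replicate number was thus seen, and the labels do not say whether same-numbered samples were handled together. The replicate block moved no other count by over 1.5 times. Depth limits ORC1, CDC7, PRIM1, POLD1 and POLE2 most, and 1 count stood for 0.241 to 0.433 CPM.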

Other observations

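Pairs of members within 1 library can be compared without any scaling between libraries, as the ratio of their counts. These pairs were chosen after their values had been seen, so no test is given, and a ratio of 3′ counts is not a ratio of molecules. The ratio of CDC6 to GMNN, the loader to the gene of the loading inhibitor, was 1.09, 1.01 and 1.55 in the DMSO libraries of ZR-75-1, 2.63, 6.17 and 3.05 with abemaciclib and 2.14, 3.11 and 2.22 for palbociclib, so that neither drug group overlapped DMSO. In CAMA-1 it was 1.17, 0.830 and 1.18 with DMSO, 1.45, 1.94 and 0.759 with abemaciclib and 1.46, 1.14 and 1.90 with palbociclib, where the groups overlapped. The abemaciclib value of 6.17 rests on 12 counts of GMNN. CDT1 to GMNN was 3.35, 2.47 and 2.77 in ZR-75-1 with DMSO, 4.30, 11.2 and 3.76 with abemaciclib and 4.56, 4.33 and 3.16 with palbociclib, and in CAMA-1 its 3 group means were 1.43 ± 0.0786, 1.22 ± 0.368 and 1.42 ± 0.313 (SD, n = 3).

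In the MCM2-7 ring, which is built from 1 copy of each protein, MCM2 and MCM7 shifted against each other, in opposite directions in the lines. MCM2 to MCM7 was 0.990, 1.28 and 1.40 in the DMSO libraries of ZR-75-1, 2.42, 2.63 and 2.66 after abemaciclib, and 1.93, 2.31 and 1.87 after palbociclib. The CAMA-1 libraries gave 2.07, 2.25 and 1.79 with DMSO, 1.62, 1.5 and 1.26 after abemaciclib, and 1.5, 1.71 and 1.71 after palbociclib. All 6 drug libraries thus lay above DMSO in ZR-75-1 and below it in CAMA-1. MCM2 to MCM6 went from 3.07 ± 0.805 to 6.91 ± 0.893 with abemaciclib in ZR-75-1 and from 2.85 ± 0.166 to 2.17 ± 0.415 in CAMA-1 (SD, n = 3). With palbociclib this ratio was 3.40, 3.28 and 4.24 in ZR-75-1, against 2.60, 2.61 and 4.00 with DMSO, and 2.21, 2.697 and 2.41 in CAMA-1, against 2.95, 2.93 and 2.66, and in both lines the palbociclib libraries overlapped DMSO.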
